A study of Bos taurus with 39 samples.

Results

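The genes described here are the zinc finger genes with a ZNF number as symbol that were expressed in cow milk cells. Of 21661 features in the deposited table, 266 carried such a symbol, and 144 of these reached at least 1 RPKM in at least 17 of 39 cows and are the members. RPKM is the number of reads scaled by gene length and by the mapped reads of the library. The members were chosen by these levels, so the threshold is a description and supports nothing. The other 122 stayed below it: 60 reached 1 RPKM in no cow, 1 of them listed at 0 throughout, and 62 reached it in 1 to 16 cows. Of the member symbols, 142 are listed as protein-coding genes in the RefSeq table of the cow, and ZNF354B and ZNF71 have no entry there under these symbols.

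Milk somatic cells are the cells shed into milk, a mixture of leukocytes and epithelial cells of the udder. They were taken by cannula from 39 Holstein dairy cows ranked by feed efficiency, with 1 RNA library per cow: 22 cows labelled LOW RFI and 17 labelled HIGH RFI. RFI is read as residual feed intake, which is feed eaten above the amount predicted from yield and body size. Animals with low RFI are the efficient ones. The series asked which genes differ between these extremes. The labels give no age, treatment, stage of lactation or pooling, and the cows are the replicates.

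Zinc finger proteins of this kind fold short stretches of the chain around a zinc ion, and strings of such fingers read DNA sequence or bind RNA or proteins. Many mammalian members also carry a KRAB domain, which recruits TRIM28 and through it histone methyltransferases and heterochromatin proteins that silence genes and transposable elements. Others have no KRAB domain and work as activators, as parts of chromatin complexes, or on ribosomes and the spindle. The roles given below are known mainly from human and mouse.

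Marker genes of the cells expected in milk were present. All 7 milk protein genes, 11 of 12 mammary epithelial, 12 of 12 neutrophil, 11 of 12 macrophage and 13 of 13 T cell markers passed the same filter, against 5 of 8 B and plasma cell and 1 of 6 erythrocyte markers. Recovered library totals ran between 41637742 and 204905052 mapped reads. Milk protein transcripts took 0.225% to 68.7% of all RPKM in LOW RFI cows, with a median of 22.5%, and 0.103% to 80.1% in HIGH RFI cows, with a median of 8.52%. The 4 libraries with the lowest median correlation with the others were LOW RFI 18, LOW RFI 20, HIGH RFI 11 and HIGH RFI 17. No pair of libraries had identical values.

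The ZNF genes were transcribed at low levels. The median over members of the mean level was 3.04 RPKM, against 7.52 RPKM over the 10636 genes tested, while gene length was alike (median 2453.5 bp for members and 2446.5 bp for all tested). A mean under 5 RPKM was found for 101 members and under 2 RPKM for 50, and 13 reached 10 RPKM. In every cow 40 members stood at 1 RPKM or more. All 144 together took 0.0247% to 0.203% of a cow's RPKM. The median number of reads behind a member ran from 70 to 6501 over members, with a median of 739.5. Single values rested on fewer reads, such as 8 for ZNF296 in its lowest library. Counting error was not compared with the spread between cows.

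The 3 highest levels were those of ZNF207, ZNF706 and ZNF622. ZNF207, which loads the checkpoint protein BUB3 onto kinetochores, averaged 35.7 ± 11.6 RPKM (SD, n = 39). Its lowest, median and highest values were 13.5, 34.5 and 53.7 RPKM in LOW RFI cows and 10.6, 40.3 and 55.3 RPKM in HIGH RFI cows. The groups overlapped over nearly their whole ranges, and the lowest value was that of HIGH RFI 17. ZNF706, a short protein that in mouse helps embryonic stem cells to leave self-renewal, averaged 27.5 ± 6.83 RPKM (SD, n = 39). ZNF622, which acts in the late maturation of the large ribosomal subunit, averaged 24.4 ± 8.70 RPKM (SD, n = 39). For ZNF622 the lowest, median and highest values were 8.27, 25.0 and 55.7 RPKM in LOW RFI cows and 4.55, 25.2 and 32.8 RPKM in HIGH RFI cows. The medians of the groups were nearly equal and LOW RFI 6 stood above all other cows.

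ZNF276 and ZNF787 followed, with means of 20.2 and 19.4 RPKM. ZNF385A, an RNA-binding protein and a partner of p53, averaged 16.5 ± 9.38 RPKM (SD, n = 39). On the log2(RPKM + 1) scale its SD of 1.12 was the largest of any member. In RPKM the SDs of ZNF207 (11.6) and ZNF276 (10.9) were larger. ZNF385A ran from 0.455 to 31.7 RPKM in LOW RFI cows, with a median of 13.8 RPKM. In HIGH RFI cows it ran from 0.465 to 34.2 RPKM, with a median of 21.3 RPKM. LOW RFI 20 and HIGH RFI 17 were both below 1 RPKM for this gene, although the mean over all cows was the sixth of the family. ZNF771, ZNF444, ZNF358 and ZNF598 completed the 10 highest, at 15.1, 14.4, 13.6 and 12.5 RPKM. ZNF598 is the ubiquitin ligase that marks collided ribosomes. Next to the SDs of 4.07 to 6.50 RPKM of these last 4 genes, the steps between neighbours in the order are small. After ZNF385A the largest SDs on the log2 scale were those of ZNF276 (0.95) and ZNF638 (0.88). The smallest were those of ZNF45 (0.17), ZNF213 (0.26) and ZNF821 (0.26). The pseudocount of 1 lowers the SD of low genes on this scale.

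**Figure D1:**
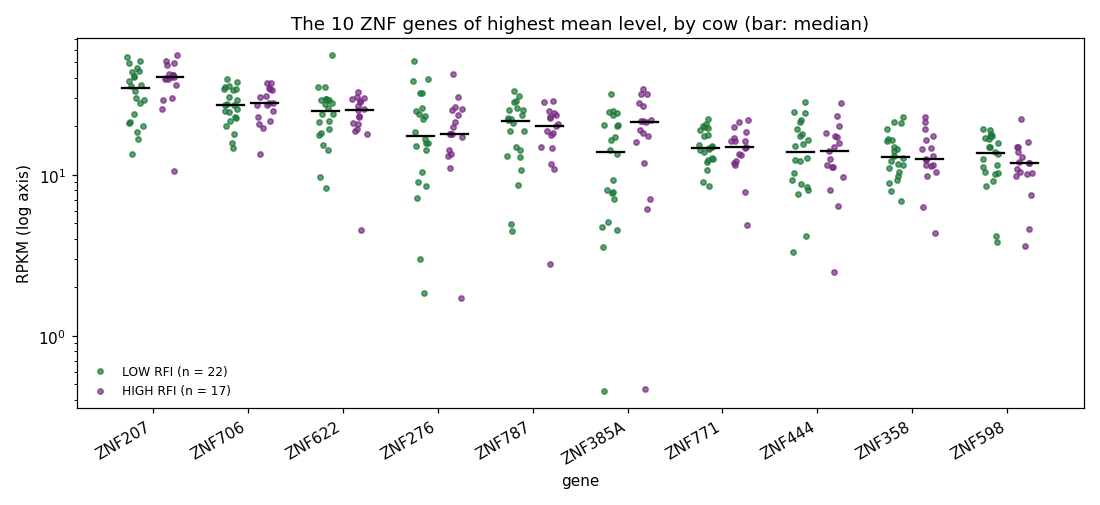
RPKM on a log axis for the 10 ZNF genes of highest mean, 1 point per cow, with LOW RFI (n = 22) left of HIGH RFI (n = 17) and bars at the medians. The groups overlap for every gene, and a few cows lie far below the rest. For ZNF276 these were HIGH RFI 17 at 1.72 RPKM, LOW RFI 20 at 1.84 RPKM and LOW RFI 18 at 2.99 RPKM.

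At the other end were ZNF45, ZNF202 and ZNF226, with means of 1.02, 0.984 and 0.922 RPKM. The 2 members at exactly 17 cows were ZNF226 and ZNF518A, with medians of 0.845 and 0.698 RPKM. Just outside, at 16 cows, lay ZNF280B, ZNF445 and ZNF862, with medians of 0.926, 0.904 and 0.744 RPKM. The values inside and outside the threshold thus overlap.

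By role, the list of sequence-specific DNA-binding regulators held 19 genes, 15 of them members. Their highest means were those of ZNF410, an activator of the nucleosome remodeller gene CHD4, at 11.5 RPKM, ZNF384 at 9.96 RPKM, ZNF219 at 8.83 RPKM and ZNF76, a relative of the promoter factor ZNF143, at 5.80 RPKM. Of 15 genes with roles in RNA, ribosomes and the spindle, 14 were members, with a median mean level of 7.97 RPKM. Of 15 genes of chromatin complexes and SUMO, 10 were members. They were led by ZNF335, which joins a histone H3 lysine methyltransferase complex, at 8.59 RPKM, and by ZNF687, ZNF217 and ZNF592 at 8.50, 8.18 and 5.39 RPKM. ZNF687 and ZNF592 are partners in a complex with ZMYND8, and ZNF217 binds the corepressor CoREST. Of 7 genes known from immune and epithelial cells, 4 were members: ZNF395 at 6.87 RPKM, ZNF703, a luminal breast repressor, at 3.93 RPKM, ZNF331 at 1.92 RPKM and ZNF750, a factor of epidermal differentiation, at 1.74 RPKM. The lymphocyte and dendritic cell factors ZNF683 and ZNF366, on the same list, did not reach the threshold.

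Most members went up and down together over the cows. Over the 10296 pairs of members, the median Pearson correlation of log2(RPKM + 1) across 39 cows was 0.60, and 94.5% of pairs were above 0. Over all tested genes the median was 0.45 and 82.8% were above 0. The median within LOW RFI cows was 0.62 and within HIGH RFI cows 0.62, and it was 0.61 with the group means removed. The leading principal component held 60.8% of the variance of the members, against 53.9% for all tested genes. That order turned under other scalings: the share was 33.3% for members and 40.9% for all tested genes rescaled without milk protein reads, and 33.5% and 41.1% for members and all tested genes after quantile normalization. These correlations are descriptions over points that share libraries, depth and scaling.

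Members with the highest mean correlation with the others were ZNF132 (0.69), ZNF512 (0.69) and ZNF3 (0.69). The closest pair was ZNF335 and ZNF408, with r = 0.97 over 39 cows, and 0.97 both within LOW RFI and within HIGH RFI cows. ZNF335 with ZNF384, ZNF408 with ZNF592, ZNF384 with ZNF408, and ZNF335 with ZNF592 came next, at 0.97, 0.96, 0.96 and 0.96. By the order of genes in RefSeq, 21 pairs of members were direct neighbours, and their median r was 0.62 as deposited, beside 0.60 for all member pairs, and 0.42 after rescaling without milk protein reads, beside 0.16 for all member pairs. No test was made of this, and whether neighbours share reads was not tested. Among the neighbours ZNF787 with ZNF444 reached 0.94 and ZNF668 with ZNF646 reached 0.92.

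The level of the family as a whole followed the share of milk protein transcripts. The mean of the members per cow, each gene centred on its own mean, had r = -0.93 and rho = -0.84 with the milk protein share over 39 cows. Without LOW RFI 18 and HIGH RFI 17, the 2 cows farthest from the median share, r was -0.90. Within LOW RFI cows r was -0.96 and within HIGH RFI cows -0.90. HIGH RFI 17, with 80.1% of its RPKM in milk protein transcripts, had the lowest value of 109 members. In that cow 44 members reached 1 RPKM, against 144 in the cows with most. A negative r with the milk protein share was found for 140 of the 144 members, and for 89.2% of all tested genes. The mean of the members followed the mean of all tested genes (r = 0.98), so this pattern was common to most transcripts.

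RPKM sets each gene against all mapped reads of the library, milk transcripts included. When the libraries were rescaled without the 7 milk protein genes, the correlation of the member mean with the milk protein share was -0.51, and the median correlation between members was 0.16, against 0.079 for all tested genes. The member mean also ran with the score of the corepressor genes of the KRAB pathway (r = 0.96 as deposited, 0.73 with the member mean rescaled). The corepressor and marker scores themselves stayed as deposited throughout. Correlations of the member mean with the marker scores changed with the scaling of the member mean. As deposited they were 0.85 for macrophage, 0.53 for T cell, 0.53 for neutrophil, 0.48 for B and plasma cell, 0.14 for epithelial and 0.044 for ribosomal protein genes. With only the member mean rescaled, they were 0.51 for macrophage, 0.63 for T cell and -0.00013 for neutrophil genes. For B and plasma cell, epithelial and ribosomal protein genes they were then 0.53, 0.39 and 0.27. With mapped reads r was 0.37 as deposited and 0.24 rescaled. In bulk RNA, fewer cells of a type and less RNA per cell cannot be told apart, and the part of cell makeup in these correlations was not tested.

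**Figure D2:**
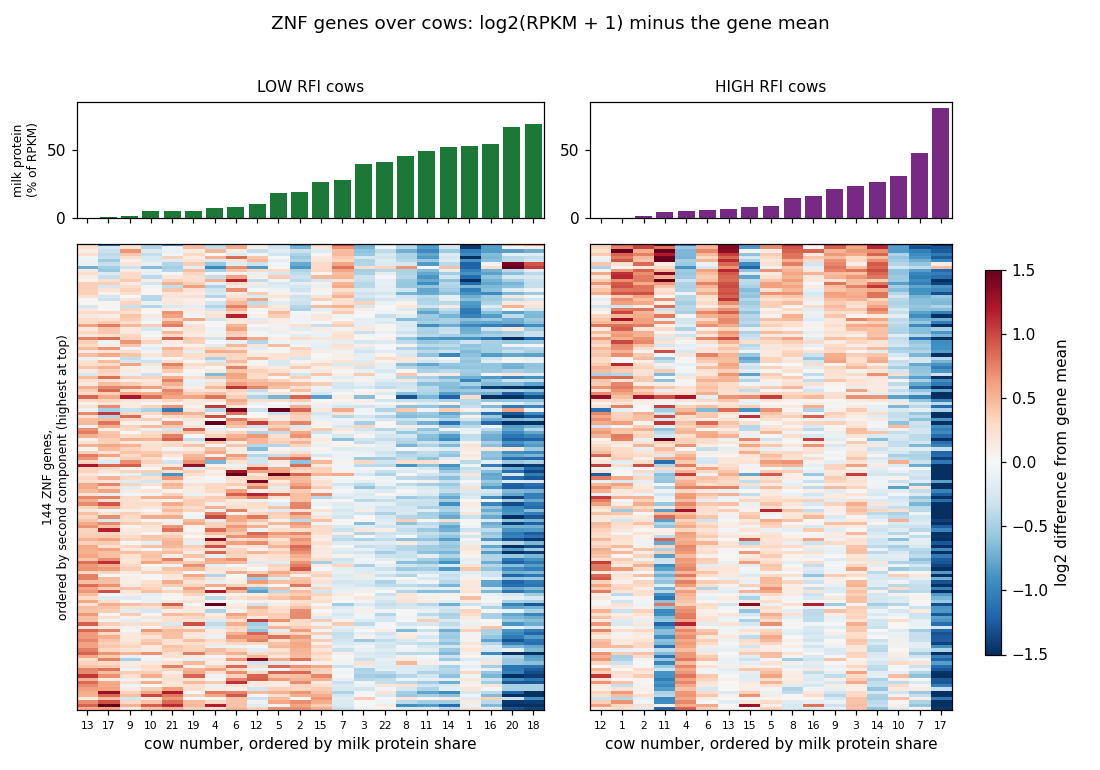
Rows are the 144 ZNF genes and columns the cows, LOW RFI left and HIGH RFI right, each group ordered by milk protein share (bars, % of RPKM); colour is log2(RPKM + 1) minus the gene mean. Most rows turn blue toward the right of each panel. The rows at the top depart from the rest in several cows, among them HIGH RFI 11, HIGH RFI 14 and HIGH RFI 13.

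**Figure D3:**
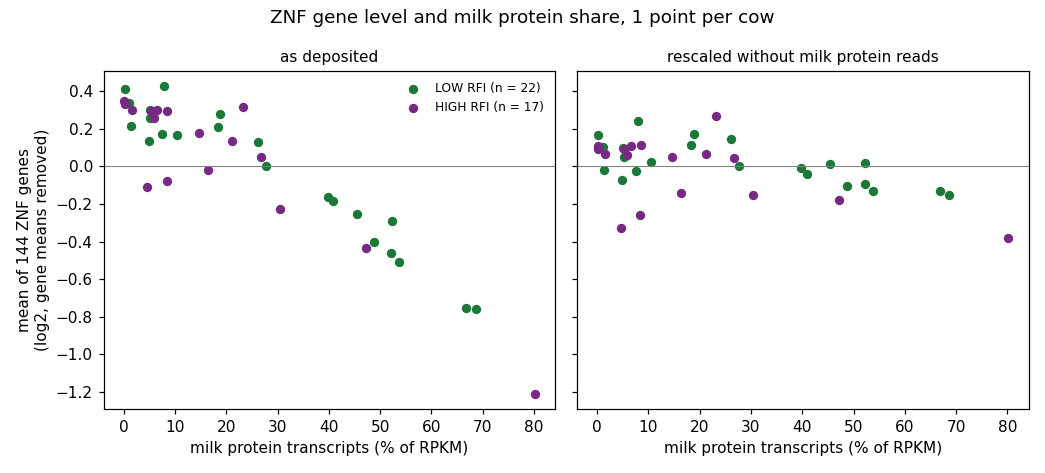
Mean of the 144 ZNF genes per cow (log2, gene means removed) against the milk protein share of RPKM, as deposited (left) and rescaled without milk protein reads (right), for LOW RFI (green, n = 22) and HIGH RFI (purple, n = 17) cows. The correlation is -0.93 on the left and -0.51 on the right.

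As deposited, the 4 members ZNF330, ZNF750, ZNF32 and ZNF277 departed from this pattern, with r = 0.46, 0.11, 0.030 and 0.017 to the milk protein share. Rescaled without milk protein reads, r was below 0 for 100 of the 144 members. It was then 0.76 for ZNF330, but also 0.76 for ZNF777 and 0.71 for ZNF524. A positive r was thus not particular to these 4 after rescaling. ZNF330 is a nucleolar protein and ZNF277 binds the ribosomal protein uS5. ZNF330 ran from 2.96 to 25.1 RPKM in LOW RFI cows, with a median of 7.83 RPKM, and from 2.95 to 15.4 RPKM in HIGH RFI cows, with a median of 8.23 RPKM. Its highest cows, LOW RFI 20 and LOW RFI 18, were among the lowest for the family as a whole. Its mean correlation with the other members was -0.27, the lowest of all, and with ZNF276 it was -0.66. ZNF277 had a mean correlation of -0.018 and ZNF750 of 0.085.

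The second component held 16.1% of the variance of the members. At its upper end stood ZNF638, ZNF24, ZNF292, ZNF148, ZNF143, ZNF614, ZNF277 and ZNF330, and at its lower end ZNF598, ZNF276, ZNF74, ZNF576, ZNF513, ZNF34, ZNF784 and ZNF688; these ends were chosen after the values were seen. Its score ran from -5.32 to 2.72 in LOW RFI cows, with a median of -0.94, and from -4.58 to 5.65 in HIGH RFI cows, with a median of 1.14. The lowest cow was LOW RFI 1 and the highest HIGH RFI 11. The score had r = -0.12 with the milk protein share and lay between -0.11 and 0.15 with each of the 8 marker scores over all cows. Within LOW RFI cows r was -0.55 with the B and plasma cell, -0.35 with the neutrophil, -0.31 with the T cell, -0.30 with the macrophage and 0.28 with the ribosomal protein score. Within HIGH RFI cows it was 0.063 with the B and plasma cell, 0.21 with the neutrophil, 0.070 with the T cell, 0.28 with the macrophage and -0.31 with the ribosomal protein score. For the milk protein, epithelial and erythrocyte scores r was 0.16, 0.13 and -0.16 within LOW RFI cows. The same scores had r = -0.20, 0.19 and 0.32 within HIGH RFI cows, the last from 1 erythrocyte marker.

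No member was called as different between LOW RFI and HIGH RFI cows after correction over all tested genes. On log2(RPKM + 1), limma-trend called 0 of 144 members at an adjusted p of 0.05, and 0% of all 10636 genes; the smallest adjusted p of a member was 0.769. At an unadjusted p under 0.05, 9 members were lower in LOW RFI cows, 6.25% of the members, beside 5.52% of all tested genes. None was higher, beside 0.432% of all tested genes. The share lower was near that of all genes. Limma-voom on recovered reads, scaled by the library totals, also called 0 members, with 3 lower and 0 higher at an unadjusted p under 0.05, beside 2.02% and 0.376% of all tested genes. With quantile normalization in limma-voom, an alternative chosen after seeing the data, 0 were called, and 4 members were lower and 17 higher at an unadjusted p under 0.05, beside 3.4% and 4.25% of all tested genes.

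The 9 were ZNF292, ZNF654, ZNF518A, ZNF148, ZNF614, ZNF800, ZNF655, ZNF644 and ZNF638, the last 3 named after their values were seen. ZNF292 is a large protein first described as an activator of the growth hormone gene in rat pituitary. Its lowest, median and highest values were 0.252, 1.04 and 3.07 RPKM in LOW RFI cows and 0.0846, 2.77 and 9.77 RPKM in HIGH RFI cows. The ranges overlapped, with the extremes on both sides in HIGH RFI cows (HIGH RFI 17 lowest, HIGH RFI 11 highest), and the HIGH RFI median was above 21 of 22 LOW RFI cows. The log2 difference was -0.66 (SE 0.22, limma-trend unadjusted p = 0.00402, adjusted p = 0.769). Without HIGH RFI 11 it was -0.56.

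ZNF654 had a lowest, median and highest value of 0.350, 1.23 and 2.40 RPKM in LOW RFI cows and 0.213, 2.47 and 5.44 RPKM in HIGH RFI cows. The HIGH RFI median was above all 22 LOW RFI cows, and several HIGH RFI cows lay below most LOW RFI cows. ZNF148, which binds GC-rich promoter boxes, had 0.413, 1.36 and 2.78 RPKM in LOW RFI cows and 0.293, 2.76 and 5.16 RPKM in HIGH RFI cows. ZNF800 had 0.751, 2.21 and 3.44 RPKM in LOW RFI cows and 0.365, 3.99 and 5.65 RPKM in HIGH RFI cows. For each of these the HIGH RFI cows spread more widely than the LOW RFI cows, on both sides. ZNF638, which in human cells recruits the HUSH silencing complex to retroviral DNA, had 1.07, 4.44 and 12.2 RPKM in LOW RFI cows and 1.29, 9.93 and 20.3 RPKM in HIGH RFI cows. The log2 differences of ZNF654, ZNF518A, ZNF148, ZNF614 and ZNF800 were -0.50, -0.46, -0.46, -0.45 and -0.43, and those of ZNF655, ZNF644 and ZNF638 were -0.32, -0.41 and -0.55. ZNF644 is a partner of the histone methyltransferases EHMT1 and EHMT2.

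**Figure D4:**
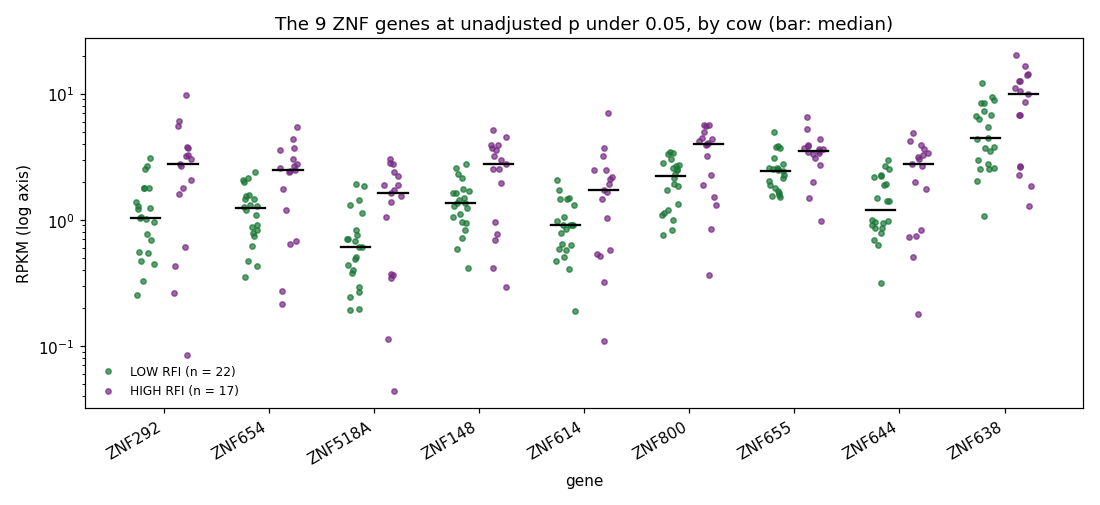
RPKM on a log axis for the 9 ZNF genes at unadjusted p under 0.05, 1 point per cow, LOW RFI (n = 22) left of HIGH RFI (n = 17), bars at the medians. The LOW RFI medians lie below the HIGH RFI medians, and for 8 of the 9 genes the lowest cow is HIGH RFI 17.

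These 9 genes varied together beyond the groups. With the group means removed, the median correlation over their 36 pairs was 0.84, with a range of 0.49 to 0.95. Over all member pairs it was 0.61. Rescaled without milk protein reads and with the groups kept, the median was 0.81, beside 0.16 for all member pairs. The 9 were chosen by p in these same cows, and no test was made of these correlations. All 9 ranked between 1 and 31 of 144 on the second component. That component was computed with the group difference left in. Its mean score was -0.75 in LOW RFI and 0.97 in HIGH RFI cows. Genes chosen as lower in LOW RFI cows were thus likely to rank high, and these ranks support nothing. Of the 9, 8 are longer than the median member. Over all 144 members, the weight on the second component had r = 0.16 with log2 gene length. They were measured in the same cows, so the 9 differences are not independent of each other.

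None of the marker genes was called between the groups. The neutrophil score, a mean of log2(RPKM + 1), was 4.00 ± 1.46 in LOW RFI cows (SD, n = 22) and 4.95 ± 1.60 in HIGH RFI cows (SD, n = 17), with ranges of 1.32 to 7.40 and 1.01 to 7.31 in LOW RFI and HIGH RFI cows. The milk protein share was 27.4 ± 23.0% in LOW RFI cows (SD, n = 22) and 17.7 ± 20.5% in HIGH RFI cows (SD, n = 17). Negative differences were found for 12 of 12 neutrophil and 11 of 11 macrophage markers, beside 73.0% of all tested genes. An unadjusted p under 0.05 was found for 3 of the neutrophil markers as deposited, beside 5.52%, and for 1 after quantile normalization, and for 0 of the macrophage markers. With neutrophil, macrophage and epithelial scores as covariates, 13 members were lower and 6 higher at an unadjusted p under 0.05, beside 6.82% and 0.903% of all tested genes, and 0 were called. The column names carry a month, whose meaning the labels do not state, and the months are spread unevenly over the groups: 6 cows tagged Feb20 and 2 tagged May20 are all HIGH RFI. With month as a factor, 0 members were lower and 0 higher at an unadjusted p under 0.05, beside 0.0564% and 0.0282% of all tested genes. The 9 differences then lay between -0.39 and -0.22, with unadjusted p between 0.0661 and 0.365. Month and group can be told apart only in part.

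Of the months, 3 held at least 2 cows of each group. In the 4 LOW RFI and 2 HIGH RFI cows tagged Sep19, all 9 genes were lower in LOW RFI, with mean milk protein shares of 22.7% in LOW RFI and 0.881% in HIGH RFI cows. In the 2 LOW RFI and 2 HIGH RFI cows tagged Jan20, 0 of 9 were lower, with shares of 29.9% and 38.9% in LOW RFI and HIGH RFI cows. In the 6 LOW RFI and 3 HIGH RFI cows tagged Jun20, 8 of 9 were lower, with shares of 28.8% in LOW RFI and 41.1% in HIGH RFI cows. The median difference of all tested genes in these months was -0.20 (Sep19), 0.086 (Jan20) and 0.31 (Jun20). The 9 were chosen as lower over these same cows, so the monthly counts are a description and support nothing.

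Over the whole family, the direction depended on how the libraries were scaled. As deposited, 93 members were lower and 51 higher in LOW RFI cows, with a median log2 difference of -0.053, against -0.12 for all tested genes, of which 73.0% were lower. After quantile normalization 49 were lower and 95 higher, with a median of 0.074, against 0.017 for all tested genes. Rescaled without milk protein, 52 were lower and 92 higher, with a median of 0.055, against 0.011. With month as a factor, 55 were lower and 89 higher, with a median of 0.042, against -0.0056. The median of the members lay above that of all tested genes in each case, by 0.062 as deposited, 0.057 after quantile normalization, 0.044 rescaled and 0.047 with month; no test was made of this.

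After quantile normalization 19 members were higher in LOW RFI cows at an unadjusted p under 0.05, beside 4.26% of all tested genes, and 6 were lower, beside 4.52%. Rescaled without milk protein, 14 were higher, beside 2.81%, and 7 were lower, beside 3.27%. The 6 and the 7 were all among the 9 named above, and 13 members were higher under both scalings, 13 of 19 and 13 of 14. All 19 had a positive difference as deposited too. They were chosen as higher in the same cows, with differences of 0.17 to 0.35 after quantile normalization. A positive sign as deposited was thus likely beforehand and supports nothing. No member had an adjusted p under 0.05 under either scaling. By the smallest p as deposited, the 6 highest were ZNF777, ZNF576, ZNF584, ZNF581, ZNF750 and ZNF688. ZNF576 had a lowest, median and highest value of 2.40, 5.79 and 9.09 RPKM in LOW RFI cows and 2.05, 5.48 and 8.62 RPKM in HIGH RFI cows. The groups of ZNF576 overlapped almost entirely, and its log2 difference was 0.20 (SE 0.14, limma-trend unadjusted p = 0.167) as deposited and 0.35 (unadjusted p = 0.0181) after quantile normalization. The collided-ribosome ligase ZNF598 had 3.84, 13.6 and 19.3 RPKM in LOW RFI cows and 3.61, 11.8 and 22.2 RPKM in HIGH RFI cows. The log2 difference of ZNF598 was 0.17 as deposited (limma-trend unadjusted p = 0.362) and 0.29 after quantile normalization (unadjusted p = 0.00928).

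**Figure D5:**
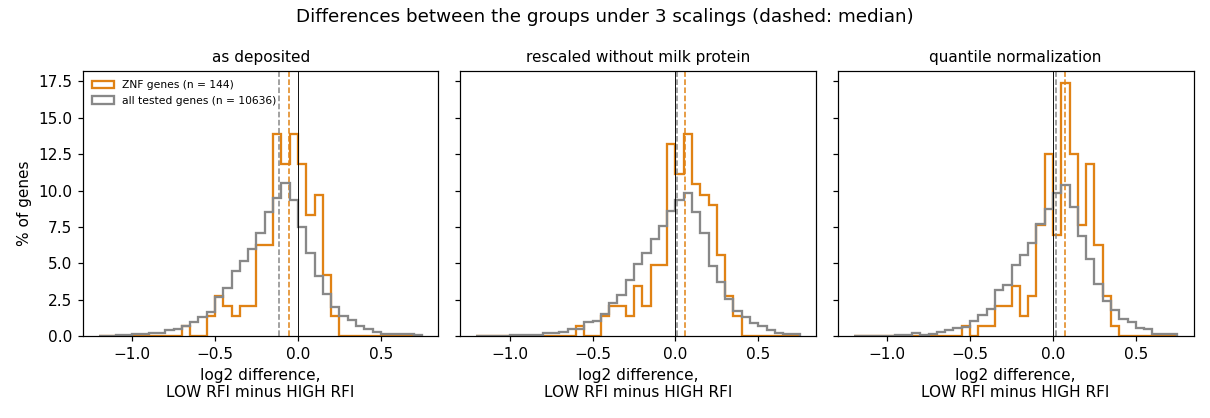
Share of genes (%) by log2 difference, LOW RFI minus HIGH RFI, for the 144 ZNF genes (orange) and all 10636 tested genes (grey) under 3 scalings, with dashed medians. The member median lies at -0.053 as deposited, 0.055 rescaled and 0.074 after quantile normalization, to the right of the median of all genes in each panel.

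By role, 10 of 15 members among the regulators, 12 of 14 in RNA, ribosome and spindle roles and 10 of 10 of the chromatin complexes had negative differences as deposited, beside 73.0% of all tested genes. Their medians were -0.073, -0.14 and -0.14, beside -0.12 for all tested genes, and 0 passed correction. After quantile normalization the medians were 0.056, -0.012 and -0.0055, beside 0.017 for all tested genes. Of the 4 immune and epithelial members 1, ZNF703, had a negative difference. ZNF395 was at 6.35 RPKM in LOW RFI and 5.85 RPKM in HIGH RFI cows by the median, with a log2 difference of 0.17.

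Among the partners of KRAB proteins, 22 of 23 corepressor genes were tested, and 0 were called. TRIM28, the corepressor that binds KRAB domains, was the highest at 54.1 ± 18.4 RPKM (SD, n = 39), above every member. Its lowest, median and highest values were 21.3, 54.6 and 89.0 RPKM in LOW RFI cows and 14.0, 54.1 and 90.2 RPKM in HIGH RFI cows. The medians of the groups nearly coincided, and the log2 difference was 0.016 (SE 0.19), with a sign that turned without the 4 libraries of lowest correlation. HDAC1, CHD4 and CHD3, of the NuRD complex, and CBX3, a heterochromatin protein, had means of 47.0, 43.7, 17.8 and 16.8 RPKM.

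Of the 22 corepressor genes, 21 had negative differences, beside 73.0% of all tested genes, with a median of -0.22, beside -0.12. An unadjusted p under 0.05 was found for 3 of them, beside 5.52% of all tested genes: MORC3, an ATPase of nuclear bodies, TASOR, a subunit of HUSH, and ATF7IP, the partner of SETDB1. TASOR and ATF7IP are named after their values were seen. MORC3 had a lowest, median and highest value of 0.576, 2.18 and 4.90 RPKM in LOW RFI cows and 0.239, 5.58 and 19.2 RPKM in HIGH RFI cows. The highest value was again that of HIGH RFI 11 and the lowest that of HIGH RFI 17. The log2 differences of MORC3, TASOR and ATF7IP were -0.76, -0.48 and -0.48, with adjusted p (limma-trend, Benjamini-Hochberg) of 0.769 each. With month as a factor their unadjusted p were 0.211, 0.143 and 0.745. After quantile normalization the median of the list was -0.081, beside 0.017 for all tested genes. The limma-trend unadjusted p of MORC3, TASOR and ATF7IP were then 0.00401, 0.0305 and 0.0288, and none passed correction.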

How the data were processed

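RNA extracted with Trizol was made into TruSeq RNA libraries, per the labels' protocols. The authors deposited 1 table of RPKM values, per the file headers; per the submitters' processing notes, reads were placed on ARS-UCD1.2. No source used here names the aligner, counter, annotation or strand setting, so reads of overlapping, antisense or near-identical genes, frequent in this family, may be shared. RefSeq names and neighbours come from another assembly, so no coordinates are given. Rows that split a symbol (135) were summed, giving 21590 genes. Month tags come from the column names.

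Genes that 17 or more cows had at 1 RPKM or above (10636) entered limma-trend (limma 3.58.1, R 4.3.3, robust) on log2(RPKM + 1), LOW RFI minus HIGH RFI, with Benjamini-Hochberg adjustment at 0.05; the pseudocount of 1 understates differences of low genes. The plan named a count model for counts only. Whole reads were recovered for all 19616 features above 0, within 0.02 reads, and used for limma-voom and as depth. The recovery and limma-trend were tested on simulated data. There limma-trend called 19.5% of genes changed by 0.5 on the log2 scale and 78.6% of those changed by 1. Changes of 0.5 were thus mostly missed, and a gene not called is not shown to be equal between the groups. Marker scores are mean log2(RPKM + 1) over tested markers.

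The members and lists were chosen with earlier results of these data known. Named were the 10 highest and 3 lowest members by mean, the 6 smallest p in each direction, 4 per role list, the extremes of mean correlation and of SD, the 5 closest pairs, those at the threshold, and the 5 highest corepressors with the smallest p in each direction. Alternatives changed pseudocount, filter, scaling, covariates, libraries and test.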

Additional observations from a re-analysis of the deposited data

How the results depend on the processing

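No member and no corepressor gene passed correction under any alternative run. The count of members lower in LOW RFI cows at an unadjusted p under 0.05, 9 as reported, was 0 with month as a factor, 3 with limma-voom, 4 with limma-voom and quantile normalization (chosen after seeing the data), 3 without the 8 libraries whose name carries a mark, 7 of them LOW RFI (chosen after seeing the data; 0.931% of all tested genes) and 15 without the 4 libraries of lowest correlation (9.67% of all tested genes). With 1 library left out it ran from 7 to 20; it was 20 without HIGH RFI 17, 16 without HIGH RFI 7 and 14 without HIGH RFI 10, beside 20.3%, 10.3% and 7.78% of all tested genes. The count higher, 0 as reported, was 19 after quantile normalization, 14 rescaled without milk protein, 17 with limma-voom and quantile normalization and 6 with cell type scores, and 0 with any 1 library left out. The median difference ran from -0.14 to -0.012 with 1 library left out. The median correlation between members was 0.14 after quantile normalization, 0.16 rescaled, 0.46 without the 4 libraries and 0.53 to 0.62 with 1 left out. The correlation with the milk protein share was -0.068 after quantile normalization, -0.51 rescaled and -0.94 to -0.91 with 1 left out. TRIM28 had a difference of -0.051 without the 4 libraries, and -0.095 to 0.074 with 1 left out. The other 169 values of the genes tested by name under these alternatives kept their direction, and none passed correction. The cause of these changes was not tested. No paired analysis was possible because the labels give no replicate numbers shared by the groups.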
